A study of Caenorhabditis elegans with 26 samples.

Results

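The last sampled larval cycle of a Caenorhabditis elegans time course, called course A, was examined by comparing its 4 libraries titled 29, 30, 31 and 32 h with its 4 libraries titled 33, 34, 35 and 36 h across all genes. These 8 libraries were chosen by their titles and are 8 of the 26 in the series. All 8 came from whole worms of the wild-type strain N2 with no added allele or agent. Larvae that had hatched overnight from egg preparations were placed at the first larval stage on NGM plates with OP50, a standard laboratory strain of Escherichia coli. Both windows share this strain, food and medium and differ in time. Per the labels this course grew slowly, and harvest was 1 h later than the title, at 30 to 33 h for the earlier window and 34 to 37 h for the later one. Times below are those of the titles. The rest of course A is 8 libraries of an earlier cycle (21 to 28 h), and course B is 10 libraries of N2 on peptone-rich plates with the bacterium NA22. No time was sampled more than once and no label says that successive times came from separate cultures. The p-values therefore measure the spread between the libraries of a window, which includes change with time inside the window and may otherwise be technical.

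A C. elegans larva builds a new cuticle beneath the old one before each molt, and many skin transcripts rise and fall once per larval stage. The skin first secretes a transient precuticle matrix and then collagens in a set order, in which the collagens of the annular furrows come early. In the last larval stage the hermaphrodite germ line makes sperm and then turns to oocytes, and the gut starts to make yolk as the worm becomes an adult. Certain collagens are made in the adult stage and not before.

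Library totals in the 8 libraries ran from 17513783 to 29911888 counts, and the 50 most abundant genes held 12.5% to 16.1% of them. Of 20182 genes in the count table, 15392 had enough counts to be tested. Levels are given as CPM, counts scaled to a library of 1e+06 after TMM normalization. A count of 0 allows up to 3 counts, which is 0.102 to 0.159 CPM depending on the library, and this covers counting error only. Consecutive libraries correlated at 0.968 to 0.982 across genes on the log2(CPM + 1) scale, against 0.851 between 29 and 36 h. The first principal component held 58.6% of the variance and the second 30%. Along the first, the libraries lay in the order of their times, except that 35 h (77.2) lay beyond 36 h (74.2). The second fell from 62.3 at 29 h to −55.2 at 33 h and returned to 57.6 at 36 h. Markers of sperm, oocytes, germ line, gut, skin, neurons, body wall muscle and pharynx were detected. None of the 5 neuronal, 4 body wall muscle, 5 general germ line or 4 tested sperm markers was called between the windows. Calls were made for 3 of 5 oocyte markers (higher), 1 of 5 gut markers (vit-2, higher), 2 of 5 skin markers (dpy-7 lower, col-19 higher) and 1 of 4 pharynx markers (ceh-22, lower). Over all genes tested, 4.05% were called higher and 2.36% lower by the rule given below. At those shares, 0 calls among 4 or 5 markers carries little weight. In whole worms, fewer cells of a type and less RNA per cell cannot be told apart.

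The windows differed in both directions. Relative to 29 to 32 h, 624 genes were higher at 33 to 36 h (4.05% of those tested) and 363 were lower (2.36%), together 6.41%, by edgeR's quasi-likelihood test with Benjamini-Hochberg adjusted p under 0.05 and a log2 difference of at least 1. The median log2 difference was 2.16 among the genes called higher and −2.09 among those called lower, against −0.05 over all genes tested. In 588 of the 624 and 338 of the 363, the libraries of the windows did not overlap. Over all genes tested, 13% lay wholly above and 10.8% wholly below in the later window. The genes called higher had their highest CPM mostly at the end, with 306 at 36 h, 185 at 35 h, 115 at 34 h and 18 at 33 h. The genes called lower peaked at 30 h in 171 cases, at 29 h in 127, at 31 h in 64 and at 32 h in 1. Over all 15392 genes tested, maxima from 29 to 36 h numbered 3890, 1576, 1763, 831, 1702, 1470, 1525 and 2635.

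These calls sit close to the threshold. The smallest adjusted p was 0.0312, while 5146 genes (33.4%) had an unadjusted p under 0.05. With 1 library left out, no gene was called when that library was 29, 30, 31, 34, 35 or 36 h (smallest adjusted p 0.0642, 0.109, 0.0728, 0.0830, 0.0967 and 0.0711, edgeR). Without 32 h, 1614 genes were called higher and 650 lower. Without 33 h the counts were 798 and 619. In the 6 runs with no calls, between 954 and 977 of the 987 called genes were still tested, and every one of those had an unadjusted p under 0.05. The 987 were chosen by their p-values in the same 8 libraries, and each run dropped only 1 of these. A low unadjusted p was therefore likely in advance and gives the calls no support. This loss of calls applies to every gene called below, so it is not repeated. Some of them were not tested in every run: vit-5 and abu-4 had enough counts in only 5 of the 8.

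**Figure D1:**
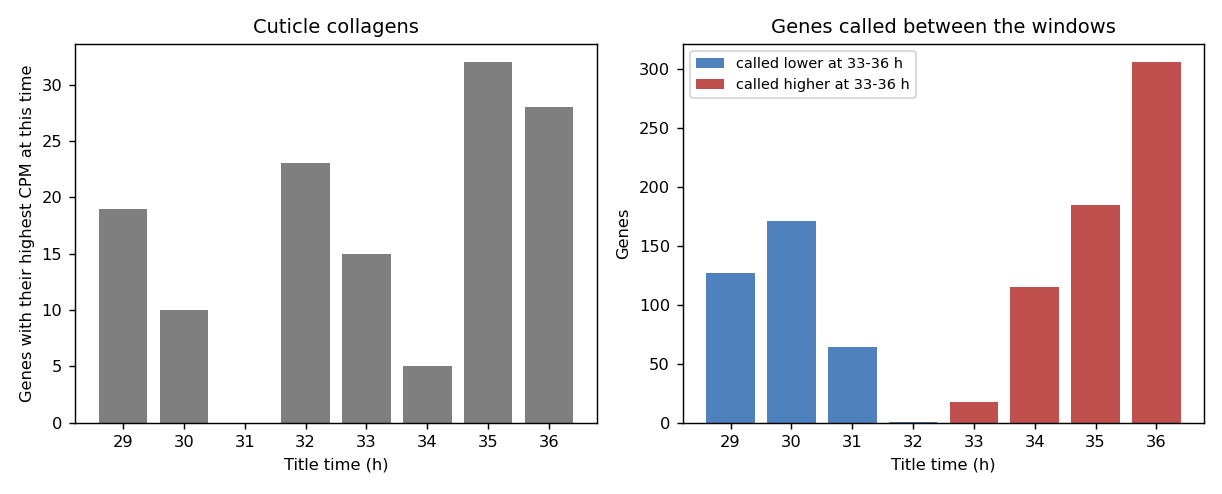
Left, the number of cuticle collagen genes whose highest CPM fell at each title time (h). Right, the same for the genes called between the windows, blue for lower and red for higher at 33 to 36 h. Collagen maxima fall in 3 groups of times, around 29 to 30, 32 to 33 and 35 to 36 h, with 0 at 31 h.

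Transcripts for early layers of the new cuticle were lower in the later window. Furrow collagens form the circular grooves of the cuticle, and their loss makes worms short and fat. All 6 furrow collagens tested were lower in the later window, against 2.36% of all genes, with a median log2 difference of −4.80. All 6 had their highest CPM at 30 h, as did 1576 of the 15392 genes tested. The level of dpy-7 was 324, 502, 335 and 128 CPM from 29 to 32 h and 32.3, 6.47, 5.43 and 4.50 CPM from 33 to 36 h. For dpy-3 the values were 118, 217, 132 and 49.6 CPM and then 9.42, 1.70, 1.87 and 1.06 CPM. In both genes the decline had begun by 31 h, every later library lay below every earlier one, and the last 3 libraries were close to each other. The log2 differences were −4.73 ± 0.82 (SE, n = 4 per window, adjusted p = 0.0313) for dpy-7 and −5.20 ± 0.85 (adjusted p = 0.0312) for dpy-3. The other 4, dpy-2, dpy-8, dpy-9 and dpy-10, had log2 differences of −4.91 to −4.60.

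Of 26 precuticle matrix and molting genes tested, 10 were lower (38.5%, against 2.36% of all genes) and 0 higher, with a median log2 difference of −1.43. The highest value fell somewhere between 29 and 32 h in 22 of the 26. Those hours held 3890, 1576, 1763 and 831 maxima of the 15392 genes tested. The largest fall among the 26 was that of fbn-1, which encodes a fibrillin-like protein of the apical matrix. Its CPM was 1907, 1088, 215 and 56.1 in the earlier libraries and 19.8, 11.6, 8.38 and 5.91 in the later ones. Each library was lower than the one before, across both windows, and the log2 difference was −6.16 ± 1.16 (adjusted p = 0.0325). The mucin-like gene dpy-6 took the same course, from 710 and 368 CPM at 29 and 30 h to 59.2 and 20.2 CPM, and then 8.403, 4.30, 3.56 and 4.41 CPM. Its log2 difference was −5.81 ± 1.15 (adjusted p = 0.0345). The zona pellucida domain gene noah-1 was still at 1956 CPM at 31 h, after 965 and 2008 CPM, and was at 647, 194, 49.9, 21.8 and 20.0 CPM from 32 h on. It was highest at 30 h, whereas fbn-1 was highest at 29 h. Other members called were let-653 and noah-2, also zona pellucida domain genes, the lipocalins lpr-1 and lpr-3, sym-1, mlt-4 and the receptor tyrosine kinase gene rol-3, with log2 differences of −4.98 to −1.42.

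Among collagen processing enzymes, 2 of 12 were lower (16.7%, against 2.36% of all genes) and 1 higher (8.33%, against 4.05%). The protease inhibitor gene mlt-11 fell by 4.20 ± 0.81 (adjusted p = 0.0332), from 670, 1264, 914 and 421 CPM to 118, 30.9, 14.3 and 14.6 CPM. The gene pdi-2, which encodes a subunit of the collagen prolyl hydroxylase, stayed abundant but dropped from 1654 ± 206 CPM (mean ± SD, n = 4) to 746 ± 255 CPM. The member that rose was phy-3, a prolyl hydroxylase gene, from 4.20 ± 2.15 to 13.5 ± 3.70 CPM. The astacin protease gene dpy-31, which cleaves procollagens and stands in no list here, was also called lower, with 113 ± 25.2 and 38.05 ± 7.19 CPM and a log2 difference of −1.57 ± 0.21 (adjusted p = 0.0312).

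**Figure D2:**
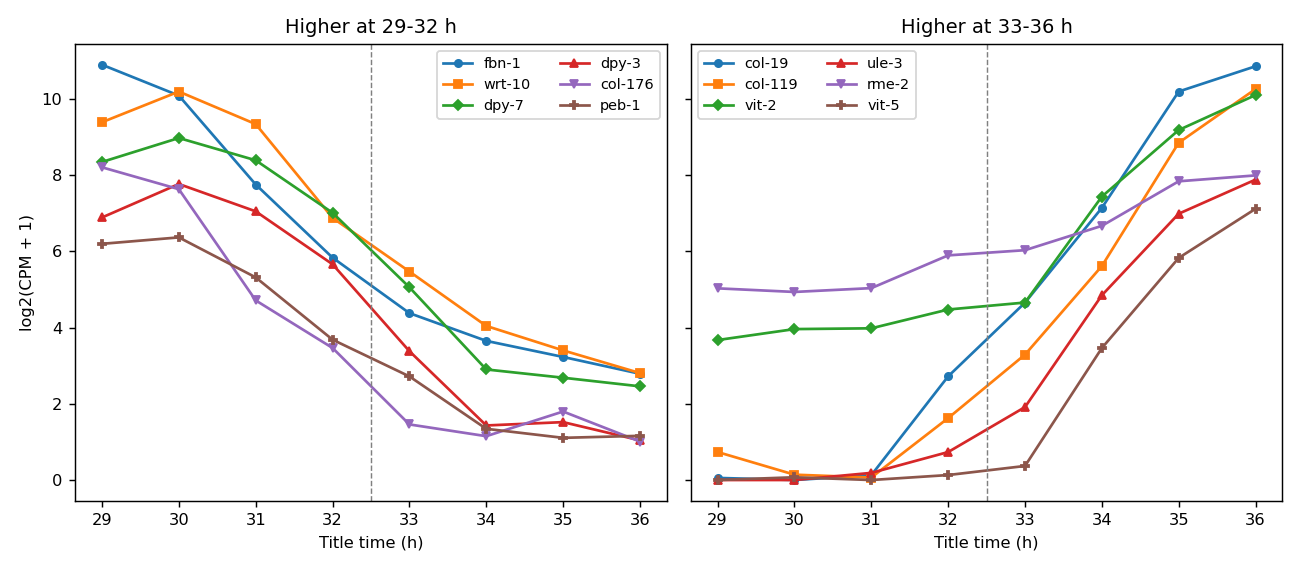
Level of 12 genes on the log2(CPM + 1) scale against title time (h), 1 point per library, with the border of the windows dashed. On the left 6 genes called lower at 33 to 36 h decline from 29 or 30 h, and on the right 6 genes called higher climb mostly after 33 h.

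Transcription factors of the molting cycle were examined next. Of 16 regulators, 5 were called lower (31.2%, against 2.36% of all genes) and 0 higher, and the median log2 difference was −0.89. The highest value fell between 29 and 32 h in 15 of the 16. Over the 15392 genes tested, those 4 hours held 3890, 1576, 1763 and 831 maxima. The gene peb-1, which encodes a DNA-binding protein needed for molting, was at 72.4, 81.5, 38.9 and 11.8 CPM and then 5.59, 1.54, 1.15 and 1.23 CPM. It changed most of the 16, by −4.43 ± 0.80 (adjusted p = 0.0316). The nuclear receptor gene nhr-91 was at 49.6, 73.1, 36.6 and 10.8 CPM, reached 3.11 CPM at 33 h and then held 7.43, 7.77 and 7.80 CPM. Its lowest library was therefore the first of the later window. The membrane-bound factor gene myrf-1 fell by 2.51 ± 0.59 (adjusted p = 0.0431), in steps from 126 CPM at 30 h to 5.25 CPM at 36 h. The Grainyhead gene grh-1 peaked at 31 h with 84.4 CPM and was called at −1.85 ± 0.47 (adjusted p = 0.0481). That call was lost with total counts (adjusted p = 0.0577), with the spread of 16 libraries (0.0598) and with no low count filter (0.0603), and that of myrf-1 was lost with no low count filter (0.0519). The zinc-finger gene ztf-6 fell by 1.76 ± 0.35 (adjusted p = 0.0346).

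The other regulators did not pass the test. The Period homolog lin-42 was at 26.6, 48.98, 48.6 and 57.0 CPM and then 24.1, 11.99, 6.28 and 3.92 CPM, so the windows did not overlap, yet its adjusted p was 0.0577. The adjusted p was 0.0678 for blmp-1, a zinc-finger repressor gene, at a log2 difference of −1.27, and 0.0651 for nhr-23, the homolog of ROR receptors, at −0.97. The windows of blmp-1 did not overlap either. With the spread of 16 libraries, lin-42 and blmp-1 were called lower (edgeR, adjusted p = 0.039 and 0.0195). Of 16 alternative settings, left-out libraries included, 6 called lin-42, 6 called blmp-1 and 2 called nhr-23. A pulse across the border of the windows was seen in bed-3, a zinc-finger gene of the molting cycle. Its CPM was 4.92, 8.23, 28.8, 123, 151, 67.4, 9.03 and 3.48 from 29 to 36 h, and its log2 difference was 0.49 ± 1.30 (adjusted p = 0.822). The nuclear receptor gene nhr-85 was high at 29 h (43.7 CPM), lowest at 31 h (2.63 CPM) and at 17.7 CPM at 36 h, a difference of −0.23 ± 0.73. For nhr-25, nhr-6, nhr-41, nhr-67, elt-3 and myrf-2 the log2 differences lay between −0.82 and 0.13.

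Cuticle collagens as a whole did not move one way. Of 132 tested, 16 were higher (12.1%, against 4.05% of all genes) and 11 lower (8.33%, against 2.36%). The furrow collagens are 6 of the 11. The median log2 difference was 1.16, with 92 positive and 40 negative, against −0.05 over all genes. Maxima came in 3 groups, 29 genes at 29 or 30 h, 38 at 32 or 33 h and 60 at 35 or 36 h, while 31 h held 0 and 34 h held 5. Over all 15392 genes tested, 31 h held 1763 and 34 h held 1470. The summed level of the family was 15250, 13584, 19369 and 51557 CPM in the earlier libraries and 51595, 40308, 74098 and 54565 CPM in the later ones. The family therefore passed through at least 2 rises within the 8 h.

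Among the collagens called higher, several were at or near the floor before 32 h. The adult collagen gene col-19, a standard marker of the adult skin, was at 0.0391, 0, 0.0924 and 5.59 CPM in the earlier libraries. It then stood at 24.2, 140, 1171 and 1855 CPM. It was detected at more than the floor in the last library of the earlier window and went up in every library after that. The log2 difference was 9.12 ± 2.27 (adjusted p = 0.0476, or 0.0603 with no low count filter). For col-119 the CPM was 0.664, 0.102, 0.0462 and 2.09 and then 8.79, 48.0, 461 and 1226, a difference of 9.22 ± 1.95 (adjusted p = 0.0367). Still more abundant at the end was col-81, with 4.10, 2.91, 1.99 and 13.7 CPM followed by 51.2, 327, 2506 and 3603 CPM, and col-124 reached the highest level of the 16, 5502 CPM at 36 h. The gene col-137 turned down at the end, from 259 CPM at 35 h to 178 CPM at 36 h. Others called higher were col-8, col-20, col-124, col-139, col-178 and col-179, at log2 differences of 7.37 to 8.89, and col-12, col-65, col-91, col-96, col-152 and col-156 at 4.26 to 5.32. The call of col-8 was lost with limma (adjusted p = 0.0657) and with no low count filter (0.0508). Near-identical collagen genes such as col-178 and col-179 can share reads, and the treatment of such reads is not given in the sources used here.

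Collagens that peaked at 32 or 33 h had pulses that spanned the border of the windows. The strut collagen gene bli-1, needed for the columns that join the layers of the adult cuticle, was at 155, 797, 1643, 1801, 576, 88.9, 37.8 and 27.8 CPM from 29 to 36 h. Its partner bli-2 was at 90.1, 404, 692, 1216, 540, 87.1, 43.4 and 19.2 CPM. Both genes peaked at 32 h and had lost most of their level by 34 h. The log2 differences were −2.59 ± 1.13 (adjusted p = 0.152) and −1.80 ± 1.12 (adjusted p = 0.297). The gene col-38 was the most abundant of this group, at 135, 721, 2143, 6109, 5749, 4120, 3454 and 841 CPM, with a difference of 0.64 ± 1.01 (adjusted p = 0.695). Body shape collagen genes were also highest at 32 or 33 h. In dpy-5 the CPM was 258, 505, 1322, 3887, 4503, 2742, 3529 and 801, and in rol-6 it was 61.6, 152, 250, 577, 468, 147, 75.9 and 20.4. Neither was called. These genes, other than col-19 and the furrow collagens, were named after their values were seen.

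A few collagens fell outside the furrow group. The gene col-176 was at 294, 197, 25.2 and 10.05 CPM and then at 1.75, 1.22, 2.48 and 1.01 CPM. Its log2 difference of −6.33 ± 1.17 (adjusted p = 0.0318) was the lowest among the cuticle collagens. In col-128 the values were 85.8, 203, 107 and 23.7 CPM and then 4.71, 2.07, 1.43 and 1.85 CPM, a difference of −5.38 ± 0.74 (adjusted p = 0.0312). The genes col-46, col-47 and col-99 were called at −4.26, −4.59 and −2.21.

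The comparison of windows leaves much of the change in this cycle uncalled. Counting each library at no less than its floor, 4977 genes ranged at least 4-fold over the 8 libraries, and 4115 of them (82.7%) were not called. Of 1548 genes with a range of at least 16-fold, 1174 were not called. One such gene was dao-4, at 3.24, 15.5, 185, 732, 779, 232, 39.7 and 18.2 CPM from 29 to 36 h, with a log2 difference of 0.19 ± 1.58. The gene mam-2 was at 3.24 CPM at 29 h, 291 CPM at 33 h and 4.28 CPM at 36 h. Troughs in the middle of the cycle were the mirror case. The collagen gene col-142 was at 165, 28.6, 3.79, 2.84, 3.59, 3.61, 41.2 and 131 CPM, and cpg-18 was at 45.5 CPM at 29 h, 0.806 CPM at 32 h and 40.3 CPM at 36 h. In all 4 genes the windows overlapped and the fitted difference was smaller than its standard error. They were named after their values were seen.

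**Figure D3:**
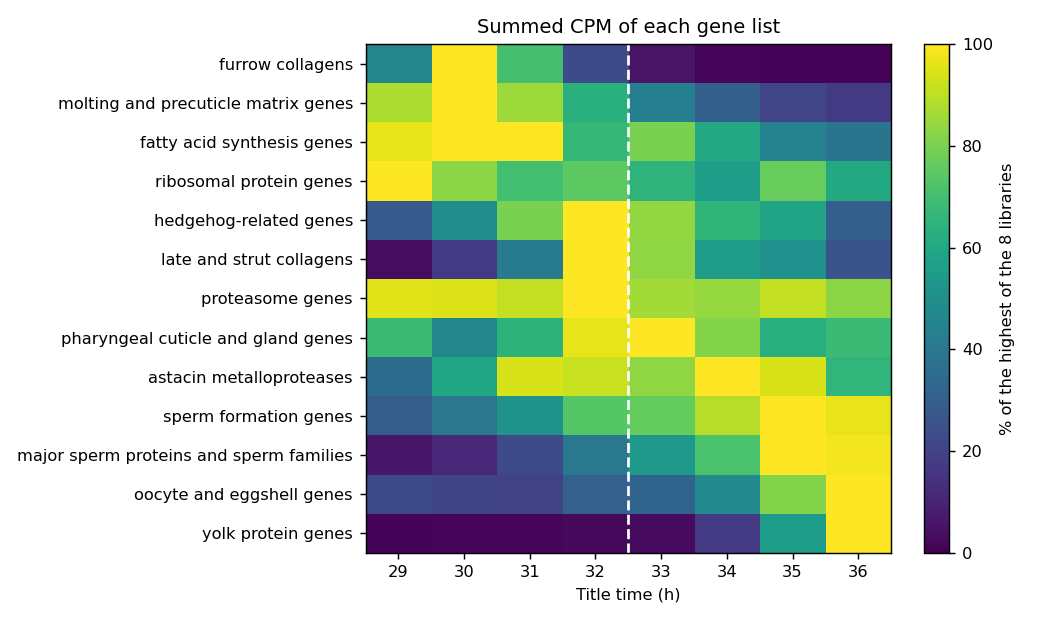
Summed CPM of 13 gene lists at each title time (h), each list scaled to its highest library (100%), with the border of the windows dashed. Maxima pass from 29 to 30 h for furrow collagens and matrix genes, through 32 to 34 h for hedgehog-related, pharyngeal and astacin genes, to 35 to 36 h for sperm, oocyte and yolk genes.

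Secreted relatives of hedgehog and their patched-related receptors, many of which are made in the skin, went both ways. Of 41 hedgehog-related genes, 3 were higher and 3 lower (7.32% each, against 4.05% higher and 2.36% lower over all genes). The Warthog gene wrt-10 was at 670, 1170, 647 and 117 CPM and then 43.4, 15.5, 9.57 and 5.996 CPM. Its log2 difference was −5.13 ± 0.91 (adjusted p = 0.0314). In the Groundhog gene grd-6 the order was turned around, with 4.02, 1.79, 1.53 and 5.78 CPM and then 14.8, 101, 168 and 131 CPM, a difference of 4.98 ± 0.82 (adjusted p = 0.0312). Another Groundhog gene, grd-14, rose from 13.4 ± 15.4 to 265 ± 133 CPM. Of 26 patched-related genes, 2 were higher and 2 lower (7.69% each). The gene ptr-10 was at 98.5, 142, 103 and 20.9 CPM and then 9.23, 3.45, 1.05 and 0.838 CPM, a difference of −4.65 ± 0.94 (adjusted p = 0.0350). The gene ptr-3 was at 4.88 to 6.49 CPM through 32 h, at 7.33 CPM at 33 h, and then at 44.6, 119.1 and 61.9 CPM, a rise of 3.31 ± 0.71 (adjusted p = 0.0374). The others called were ptr-9, which fell by 3.30, and ptr-23, which rose by 2.83. No direction is given for the patched-related list, since its median changed sign with the scaling (−0.01, or 0.13 with total counts).

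Cuticlins and other zona pellucida relatives that form ridges and linings were lower in 5 of 32 cases (15.6%) and higher in 1 (3.12%). Over all genes the shares were 2.36% and 4.05%. The gene cutl-9 had the largest fall of the list, from 18.7 ± 10.1 to 1.29 ± 0.963 CPM. The one that rose was cutl-12, from 4.50 ± 1.94 to 17.6 ± 4.88 CPM.

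Astacin metalloproteases, some of which act in shedding the old cuticle, had 8 of 32 genes higher (25%, against 4.05% of all genes) and 0 lower, with a median log2 difference of 1.26, not counting dpy-31. The 32 are those of 37 members in the count table with enough counts, and 31 remained when 34, 35 or 36 h was left out. A member with few counts before 33 h, such as nas-21, passed that filter only through the later window, which fixed its sign in advance. In nas-20 the CPM was 0.0391, 0.716, 1.02 and 1.33 and then 3.11, 23.0, 68.4 and 114. The nearby gene nas-21 had 3 counts in all in the earlier window and 497 in the later one. That is 159-fold more, with an exact counting interval of 54.1 to 774. The genes nas-1, nas-12, nas-17, nas-22, nas-27 and nas-30 rose by 3.30 to 4.97. Genes of the pharyngeal cuticle and glands, a lining that is also replaced at each molt, were higher in 8 of 36 cases (22.2%). They were lower in 1 (2.78%, against 2.36% of all genes). The 36 are those of 58 members in the count table with enough counts, and 30 remained when 35 h or 36 h was left out. Members with few counts before 33 h passed that filter through the later window, which fixed their sign in advance. The gene abu-10 was at 0.416 to 1.46 CPM through 33 h and then at 12.4, 48.1 and 53.8 CPM, and idpc-3 was at 9.03 CPM at 33 h and 30.0, 31.0 and 21.5 CPM after. The related gene abu-4 had 0 counts in the earlier window and 93 in the later one, at least 29.8-fold higher against a floor of 3 counts over the window. The member that fell, phat-3, went from 8.44 ± 3.24 to 2.91 ± 0.922 CPM. The 4 pharynx markers had negative differences: the regulator gene ceh-22 was called lower (−1.14, adjusted p = 0.0454), and myo-1, myo-2 and tnc-2 were at −1.11, −0.83 and −0.69 and not called. Their part in the counts of the lining genes was not tested.

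Sperm families, such as the major sperm proteins that form the sperm cytoskeleton, were higher in 15 of 39 genes and lower in 0. All 39 log2 differences were positive, with a median of 2.57, against 4.05% called higher and a median of −0.05 over all genes. The 39 are those of 60 members in the count table with enough counts, and 34 remained when 35 h or 36 h was left out. A member with few counts before 33 h could pass that filter only through the later window. For such members the positive sign was fixed in advance. Their summed CPM climbed from 102, 199, 377 and 685 to 917, 1218, 1704 and 1676, so that it levelled at 35 h. In msp-49 the CPM was 0.781, 1.12, 1.43 and 2.89 and then 6.65, 7.64, 14.05 and 15.8, a rise of 2.82 ± 0.49 (adjusted p = 0.0313). In ssq-4 it was 9.06, 11.2, 11.8 and 30.6 and then 48.2, 56.8, 142 and 137. Neither gene's windows overlapped. Members of these families are nearly identical and can share reads. Genes of sperm formation and fertilization were higher in 5 of 34 cases (14.7%), with a median of 1.10. Among them are spe-12 and spe-27, which are needed to activate sperm, and spe-12 rose from 3.31 ± 2.04 to 13.2 ± 2.03 CPM. The sperm phosphatase genes gsp-3 and gsp-4, at 1.31 and 1.53, were not called (adjusted p = 0.0744 and 0.0677).

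Of 28 oocyte and eggshell genes tested, 17 were higher (60.7%, against 4.05% of all genes) and 0 lower. All 28 differences were positive, and the median was 1.49. The highest value fell at 36 h in 27 of the 28, against 2635 of the 15392 genes tested. The yolk receptor gene rme-2 was at 31.7, 29.6, 31.8 and 58.5 CPM and then at 64.4, 101, 228 and 254 CPM. Its level was flat until 31 h and had gone up in each library after that, with a log2 difference of 2.09 ± 0.47 (adjusted p = 0.0399). The oocyte RNA-binding protein gene puf-5 was at 1.91, 3.32, 4.85 and 6.68 CPM and then 13.4, 19.05, 43.4 and 55.7 CPM, a rise of 2.97 ± 0.57 (adjusted p = 0.0328). Genes for eggshell layers came up at the same time. The proteoglycan genes cpg-1, cpg-2 and cpg-3 rose by 2.42, 2.53 and 2.45, while chs-1, for chitin synthase, and the chitin-binding gene cbd-1 rose by 1.28 and 1.27. The eggshell barrier gene perm-2 was at 0.234, 0.818, 1.71 and 5.45 CPM and then 7.97, 21.4, 51.0 and 69.4 CPM, a rise of 4.19 ± 1.04 (adjusted p = 0.0473, or 0.0609 with no low count filter). Its relative perm-4 had the largest fitted difference of the list, 4.35, and was not called. The maternal RNA regulators pos-1, mex-6 and spn-4 rose by 2.48, 1.84 and 1.36, while oma-1 and oma-2, at 1.23 and 1.04, did not pass (adjusted p = 0.0513 and 0.110).

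Genes used by the germ line at large gave no call. None of 31 meiotic and germ granule genes was called (against 6.41% of all genes), with a median of 0.45 and 30 positive differences. All later libraries lay above all earlier ones in 10 of the 31, against 13% of all genes. The germ granule helicase gene glh-1 was at 307, 193, 134 and 243 CPM and then 187, 215, 349 and 332 CPM, a difference of 0.30 (adjusted p = 0.511). These levels are values beside the sperm and oocyte genes, and their part in those results was not tested. Among 14 genes of the switch from sperm to oocytes, 1 was called, lower (7.14%, against 2.36% of all genes). It was fog-3, which drives germ cells to become sperm, at 7.19, 4.81, 5.69 and 2.99 CPM and then 2.23, 1.80, 1.39 and 1.06 CPM, a difference of −1.67 ± 0.35 (adjusted p = 0.0358). Its later libraries all lay below its earlier ones.

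Yolk genes had the highest median log2 difference of the 39 lists, 5.38. Of 6 tested, 4 were higher (66.7%, against 4.05% of all genes). When 34, 35 or 36 h was left out, 5 of the 6 had enough counts to be tested. The gene vit-5 passed that filter only through the later window, which fixed its sign in advance. All 6 were highest at 36 h, as were 2635 of the 15392 genes tested. The gene vit-6 was at 19.3, 29.0, 28.8 and 59.8 CPM and then 101, 761, 2517 and 4493 CPM. In vit-2 the values were 11.8, 14.6, 14.8 and 21.2 CPM and then 24.2, 172, 581 and 1098 CPM. In both genes the largest fold step was that from 33 to 34 h, while the largest step in CPM was that from 35 to 36 h. The log2 differences were 5.84 ± 1.13 (adjusted p = 0.0332) and 4.91 ± 1.04 (adjusted p = 0.0367). The gene vit-5 had 3 counts in the earlier window and 4967 in the later one, a ratio of 1589 with an exact counting interval of 543 to 7708. Its CPM at 34, 35 and 36 h was 10.03, 55.8 and 138. Of 18 genes of an intestinal list 2 were higher (11.1%) and 1 lower (5.56%, against 2.36% of all genes), with a median of 0.02. The gut regulator gene elt-2 and the esterase gene ges-1 differed by −0.38 and −0.14 (adjusted p = 0.182 and 0.566). The genes vit-3, vit-4 and vit-5 are similar enough to share reads. Another late riser was ule-3, named for expression in the uterine lumen, at 0, 0, 0.139 and 0.663 CPM and then 2.77, 27.8, 126 and 235 CPM (8.92 ± 1.72, adjusted p = 0.0332).

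**Figure D4:**
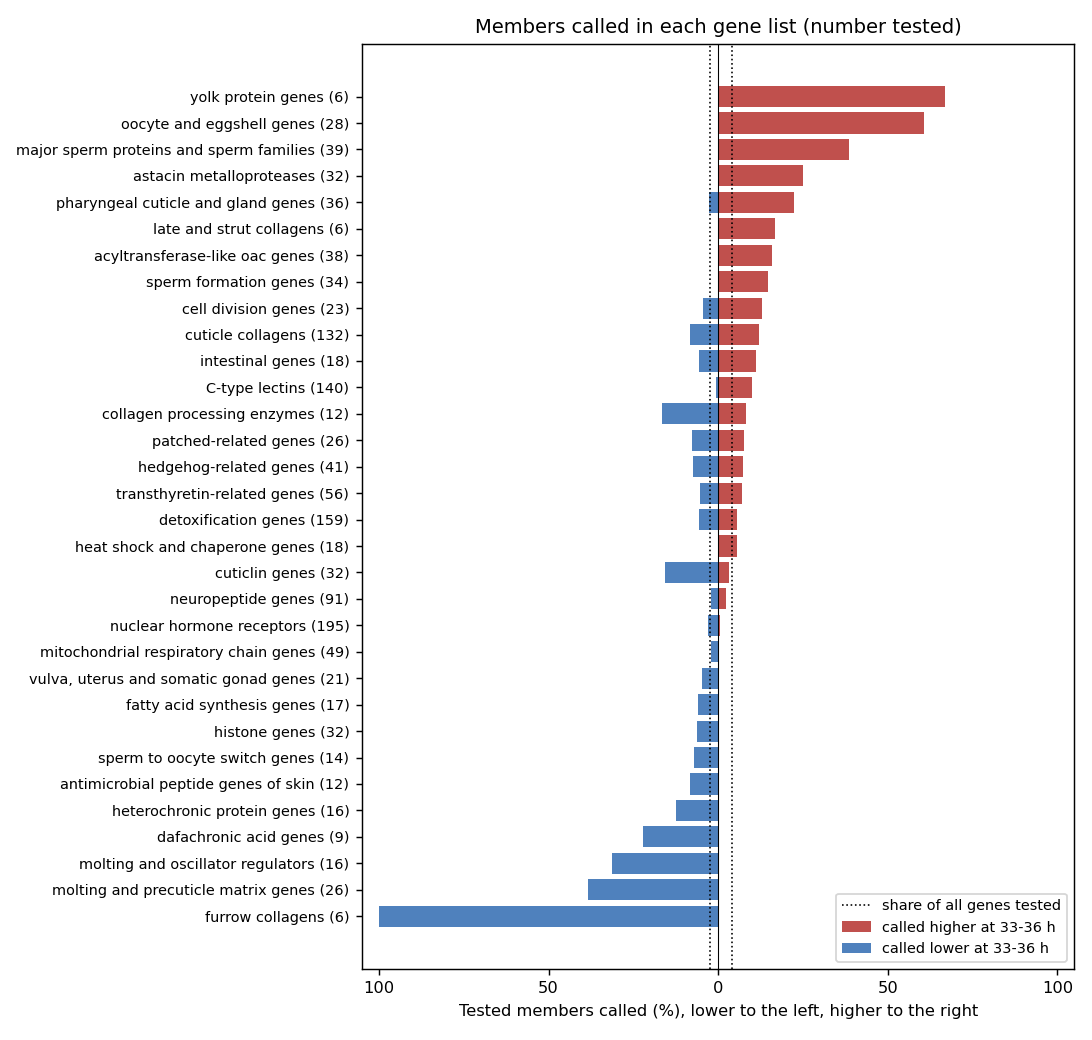
Share of tested members (%) called higher (red, to the right) or lower (blue, to the left) at 33 to 36 h in each gene list with at least 1 call, number tested in brackets. Dotted lines mark the shares over all genes, 4.05% and 2.36%. Furrow collagens reach 100% lower, and yolk genes 66.7% higher.

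Timing genes of development changed in part. Heterochronic genes set which larval stage a cell follows, and 2 of 16 protein-coding members were lower (12.5%, against 2.36% of all genes). They were lin-29, whose zinc-finger product drives the switch of the skin to its adult program, and mab-10, which encodes its cofactor. The gene lin-29 was at 33.0, 43.7, 35.1 and 21.5 CPM and then 13.6, 9.71, 8.04 and 7.36 CPM, a difference of −1.78 ± 0.28 (adjusted p = 0.0312). For mab-10 the values were 17.8, 25.9, 13.9 and 8.53 CPM and then 4.27, 3.18, 1.76 and 2.51 CPM, a difference of −2.50 ± 0.41 (adjusted p = 0.0312). Both peaked at 30 h, before col-19 became abundant. The early larval genes lin-14 and lin-28 differed by −0.03 and 0.13 and were not called, and hbl-1 was at −1.37 (adjusted p = 0.0523). Of 9 genes around dafachronic acid, the steroid that permits reproductive growth, 2 were lower (22.2%). They were hsd-3, at a log2 difference of −6.08 ± 1.06 (adjusted p = 0.0313), and the sterol methyltransferase gene strm-1, at −3.496 ± 0.56 (adjusted p = 0.0312). The gene daf-9, which encodes the enzyme of the last step, was at 18.4, 16.2, 8.69 and 5.31 CPM and then 5.63, 3.98, 4.55 and 5.11 CPM, and was not called (adjusted p = 0.0629).

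Of 23 cell division genes, 3 were higher (13%, against 4.05% of all genes) and 1 lower (4.35%, against 2.36%), with a median of 0.33. The cyclin D gene cyd-1, which acts at entry into the cycle, was at 5.35, 6.90, 3.84 and 1.33 CPM and then 0.340, 0.531, 0.679 and 0.265 CPM, a difference of −3.24 ± 0.56 (adjusted p = 0.0313). The cyclin B genes cyb-1, cyb-2.1 and cyb-2.2, which act at mitosis and are abundant in the germ line, rose by 1.26, 1.88 and 1.73. None of 18 DNA replication genes was called, and their median is given no direction, since it was −0.10 here and 0.01 with total counts. In the vulva, uterus and somatic gonad list 1 of 21 was lower (4.76%, against 2.36%). It was the cadherin gene cdh-3, at 152, 183, 89.8 and 30.9 CPM and then 27.5, 29.2, 21.2 and 12.6 CPM (−2.33 ± 0.53, adjusted p = 0.0417).

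The following shares stand against 4.05% higher and 2.36% lower over all genes. Among C-type lectins, which include immune effectors, 14 of 140 were higher (10%) and 1 lower (0.714%), with a median of 0.05; clec-87 rose from 7.79 ± 3.60 to 47.9 ± 26.6 CPM. Detoxification genes gave 9 higher and 9 lower of 159 (5.66% each). The glucuronosyltransferase gene ugt-57 was at 85.5, 92.9, 43.04 and 8.10 CPM and then 4.13, 0.955, 1.19 and 0.926 CPM (−4.997 ± 0.89, adjusted p = 0.0316), and the glutathione transferase gene gst-9 rose from 4.96 ± 2.24 to 24.1 ± 8.52 CPM. Acyltransferase-like oac genes were higher in 6 of 38 cases (15.8%) and lower in 0. Of these oac-59 went from 18.0 ± 2.71 to 41.5 ± 4.01 CPM with little spread in either window. Of 56 transthyretin-related genes 4 were higher (7.14%) and 3 lower (5.36%). Among nuclear hormone receptors 1 of 195 was higher (0.513%) and 6 lower (3.08%), the latter close to the share over all genes. The largest change was that of nhr-235 at −4.56 ± 0.84 (adjusted p = 0.0316).

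Fatty acid synthesis gave 1 call, lower, among 17 genes (5.88%, against 2.36% of all genes). It was the fatty acid synthase gene fasn-1, at 2788, 3178, 2414 and 1366 CPM and then 810, 603, 518 and 529 CPM, a difference of −1.99 ± 0.28 (adjusted p = 0.0312). The desaturase gene fat-6 was at 747 ± 62.97 and 557 ± 255 CPM and was not called. Of 18 chaperone genes 1 was called, higher (5.56%, against 4.05% of all genes). It was the small heat shock gene sip-1, up by 1.53 ± 0.33 (adjusted p = 0.0381). Neuropeptide genes gave 2 higher and 2 lower of 91 (2.2% each), not above the shares over all genes. Histone genes gave 2 lower of 32 (6.25%). Skin antimicrobial peptide genes gave 1 lower of 12 (8.33%), nlp-31 (−1.51 ± 0.24, adjusted p = 0.0312). Mitochondrial respiratory chain genes gave 1 lower of 49 (2.04%, near the share over all genes). It was cyc-2.1, encoding cytochrome c (−1.05 ± 0.16, adjusted p = 0.0312). Its difference was short of the fold minimum at −0.94 with total counts and −0.93 with limma.

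In several groups no gene was called, against 6.41% of all genes called in either direction. Of 74 ribosomal protein genes, 71 differences were negative with a median of −0.29, and the summed level was 127690, 105560, 89038 and 95549 CPM and then 83063, 71535, 98120 and 77807 CPM. The 35 h library lay above 31 and 32 h in this sum. None of 25 neuronal genes (median −0.26), 19 body wall muscle genes (−0.17), 33 proteasome genes (−0.13) or 12 lysozyme genes (0.21) was called.

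The earlier cycle of course A offered a second look at the same contrast in 8 other libraries, 25 to 28 h against 21 to 24 h. In a fit over all 16 libraries, 801 genes (5.04%) were higher and 131 (0.825%) lower in that cycle, against 913 (5.75%) and 536 (3.37%) in the last one. Of the 624 genes called higher in the last cycle, 164 were also called higher in the earlier one and 0 lower, and 554 had a positive difference there. Over all genes 56.8% of the earlier differences were positive. Of the 363 called lower, 86 were called lower and 4 higher in the earlier cycle, and 325 had a negative difference. The furrow collagens fell in both cycles, all 6 of 6, with medians of −4.24 and −4.75. The differences of the earlier cycle were −1.74 for fasn-1 and −3.33 for wrt-10, both called lower. The windows need not cover the same part of both cycles: fbn-1 was at 1310 CPM at 21 h and 35.7 CPM at 26 h, and was back at 767 CPM by 28 h, whereas it was at its lowest at 36 h. How far a difference of phase contributes was not tested.

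**Figure D5:**
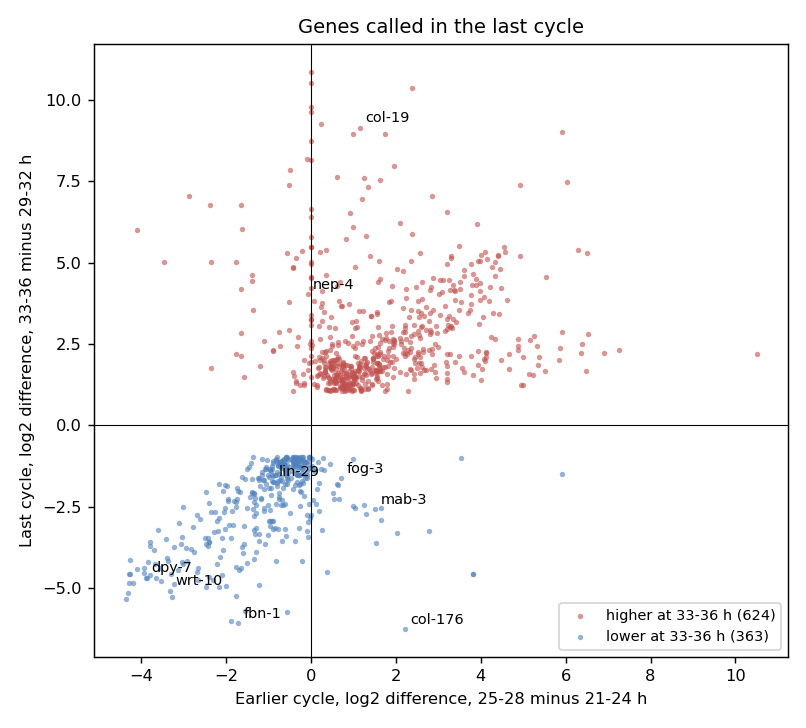
Log2 difference of the earlier cycle (25 to 28 h minus 21 to 24 h) on the x axis against that of the last cycle (33 to 36 h minus 29 to 32 h) on the y axis, from the 16-library fit, for the 624 genes called higher (red) and the 363 called lower (blue). Most red points lie right of 0 and most blue points left of it. Points at or near 0 on the x axis, such as nep-4, had little or no change in the earlier cycle.

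The difference between the cycles itself was called for 17 genes, 4 with the last cycle above (0.0252%) and 13 with it below (0.0818%), while 1883 genes (11.9%) had an unadjusted p under 0.05. Adult transcripts such as col-19 were not among them (col-19 7.99 ± 6.35, adjusted p = 0.672, and col-119 9.04 ± 3.85, adjusted p = 0.365). Means in the earlier cycle were 0.0211 and 0.0638 CPM for col-19 and 0.0596 and 0.0728 CPM for col-119. Such counts are too few to fix a ratio there, so the test could not decide for these genes. In the last cycle the means were 1.51 and 838 CPM for col-19 and 0.749 and 458 CPM for col-119. The zinc-finger gene ztf-26 had means of 8.07 and 8.58 CPM in the earlier cycle and 5.30 and 20.8 CPM in the last one, an added rise of 1.89 ± 0.28 (adjusted p = 0.0215). The neprilysin gene nep-4 was at 0.562, 0.526, 1.39 and 22.5 CPM over the 4 windows. The vulval and uterine regulator gene lin-11 rose from 4.82 to 16.6 CPM in the earlier cycle and was at 16.3 and then 8.70 CPM in the last one, a difference of −2.69 ± 0.37 (adjusted p = 0.0215). The gene vab-23, a zinc-finger factor of vulva formation, went from 10.9 to 25.1 CPM and then from 19.1 to 9.93 CPM (−2.15 ± 0.35, adjusted p = 0.0373, or 0.0505 with DESeq2 size factors). In fog-3 the means were 4.66, 7.63, 5.21 and 1.69 CPM (−2.33 ± 0.41, adjusted p = 0.0490). In cutl-16 they were 17.4, 42.7, 34.2 and 5.22 CPM (−3.996 ± 0.68, adjusted p = 0.0490, or 0.0539 to 0.0566 under other scalings or with no filter). In each of these 4 genes the difference was positive in the earlier cycle and negative in the last one. Other genes called were mab-3, egl-46, cdc-25.2, ten-1, F10B5.3, F14B8.5, F14F7.5, R148.7, Y41C4A.11, ZK105.3 and 1 known by its identifier. No gene was called for this difference without the library of 22, 23, 27, 28, 30, 31, 34 or 35 h.

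In course B, which ran on other food and its own clock, the same genes were at the following shares of total counts. The level of col-19 was 0.169, 3.14 and 156 CPM at 32, 34 and 36 h, and that of vit-5 was 0, 0 and 0.797 CPM. The gene dpy-3 was at 195, 235 and 9.90 CPM and fbn-1 at 2480, 240 and 21.4 CPM at those times. At 36 h in course B the furrow collagen gene was low while col-19 was still below its 36 h level in course A. The courses were not tested against each other.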

How the data were processed

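The authors deposited raw counts per gene and a table of log2 values. Recomputed as the log2 of counts scaled to the mean total of the course plus 8, the deposited log2 values differed by at most 5e-05. Total RNA was extracted with Tri-Reagent and made into libraries with ScriptSeq v2, per the labels. No source used here gives the aligner, counting tool, strand setting, genome build or annotation, so no coordinates are printed and overlapping or near-identical genes can share reads.

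A gene was tested if it reached 10 counts, at a library of median size, in 3 or more of the libraries. In any list, a gene with few counts in 1 window could pass only through the other, which fixed its sign in advance. Counts of the 8 libraries were fitted with edgeR 4.0.16 (TMM, robust quasi-likelihood F test, R 4.3.3), with no covariate. Calls needed a Benjamini-Hochberg adjusted p under 0.05 over all genes and a log2 difference (33 to 36 h minus 29 to 32 h) of at least 1. The cycle comparison used an interaction term over 16 libraries. DESeq2 1.42.0 and limma 3.58.1 were alternatives, and the fits were tested on simulated data. The simulated counts were independent and had no change with time inside a window, unlike these data. They therefore do not show how the fits behave under such change. Lists were described by counts and medians, without a test. The windows and all 39 lists were chosen with earlier results of these data known. Genes named were the 16 regulators, the 6 largest rises and 6 largest falls among called genes with a mean of at least 10 CPM over the 8 libraries and a gene name of letters and a number (sequence names were left out), the most changed called member of each list, and the 3 highest and 3 lowest differences between the cycles among genes called there under the same 2 conditions, with the mean taken over the 16 libraries (1 and 4 such genes, so 1 and 3 were taken). Other genes were named after their values were seen.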

Additional observations from a re-analysis of the deposited data

Results flagged for a closer look

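Within the windows, 7 of 113 gene and window combinations had a library set apart from the others, by a gap to its nearest neighbour of more than 0.829 of the window's range on the log2(CPM + 1) scale. Chance gives about 1 in 20 for independent values. That rate does not apply here, since the libraries of a window are successive times of genes that rise or fall. In 29 to 32 h the library of 32 h was the high one for col-19 (0.953), col-137 (0.835), clec-229 (0.906) and nas-21 (1), all genes that were higher in the later window. In 33 to 36 h the library of 33 h was the high one for peb-1 (0.853) and ugt-57 (0.87), which fell, and the low one for nhr-91 (0.943). Every one of these 7 libraries is the one next to the border of the windows.

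The change within the cycle differed between the last and the earlier cycle in 17 genes. Of those named by rule, cutl-16 (−3.996), fog-3 (−2.33), lin-11 (−2.69) and vab-23 (−2.15) had a lower log2 difference in the last cycle, and ztf-26 (1.89) a higher one.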

How the results depend on the processing

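No paired analysis was possible because the labels give no replicate numbers, and each time was sampled once. Counts are written as higher and lower at 33 to 36 h, main values 624 and 363. They were 1708 and 722 with DESeq2's Wald test, 1547 and 619 with hour within the window as a covariate, 1679 and 906 without 32 and 33 h, 743 and 651 with no fold minimum, 347 and 187 with a log2 minimum of 2, and 1313 and 397 with limma on the deposited log2 values. Leaving out 1 library gave 0 to 1614 higher and 0 to 650 lower. DESeq2 size factors (625 and 340), total counts (686 and 271), no low count filter (428 and 270) and the spread of 16 libraries (913 and 536) stayed within 1.5 times the main counts. Genes called for the difference between the cycles numbered 17, against 8 with DESeq2 size factors, 10 with total counts, 9 with no filter, 323 with DESeq2's Wald test and 0 to 130 with 1 library left out. Total counts moved the median log2 difference of all genes from −0.05 to 0.07. Sign changes were seen in 4 named genes that were not called: bed-3 (−0.65 without 33 h; −0.65 to 2.05 over single libraries left out), nhr-25 (0.02 without 29 h, 0.12 without 36 h; −0.50 to 0.12), nhr-6 (−0.05, −0.01 and −0.11 without 30, 31 and 36 h; −0.11 to 0.65) and nhr-85 (0.26 with the hour covariate, 0.53 with limma, 0.89 without 29 h; −0.50 to 0.89). The cause was not tested. With 1 library at each time, biological spread and change with time cannot be told apart.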

Other observations

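Counts were also made by gene name family, which were picked after the values were known and overlap the lists in part. The shares to set beside these counts are 4.05% higher and 2.36% lower over all genes tested. Of 9 cadherin genes tested, 4 were lower at 33 to 36 h and 0 higher. The gene cdh-7 was at 466, 419, 220 and 67.3 CPM and then 19.8, 7.32, 5.16 and 3.48 CPM, and cdh-10 was at 446, 456, 247 and 101 CPM and then 34.6, 13.4, 12.8 and 11.5 CPM. The others were cdh-3 and cdh-12. Of 8 genes of the puf family, which encode RNA-binding proteins, 4 were higher, some of them also in the oocyte list. Of 30 short-chain dehydrogenase genes (dhs) 6 were lower, among them dhs-4, from 42.5 ± 26.6 to 6.57 ± 2.48 CPM.

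Several transcripts known by sequence names appeared near the end of the cycle. The gene Y62H9A.4 had 1 count in the earlier window and 3033 in the later one, a ratio of 2911 (exact counting interval 522 to 115010), and stood at 81.2 CPM at 36 h. Its namesakes Y62H9A.3 and Y62H9A.5 went from 1 count each to 1427 and 2382.

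Adjacency of called genes was counted as well. With genes ordered as in RefSeq (14282 of 15392 matched), 81 of 554 genes called higher had a neighbour called higher (14.6%), against 6.67% of all genes with a tested neighbour. For genes called lower this was 26 of 322 (8.07%) against 3.86%. Runs included the lipocalins lpr-3, lpr-4, lpr-5 and lpr-6 (lower) and nas-20, nas-21 and nas-22 (higher). This was not tested, and similar neighbouring genes can share reads.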
